A study of Mus musculus with 10 samples.

Results

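The genes described are 10 members of the BCL2 family, picked by symbol: 6 that promote apoptosis (Bcl2l11, Bad, Bid, Bax, Bak1 and Bok) and 4 that block it (Bcl2l1, Bcl2, Mcl1 and Bcl2l2). They are 10 of the 35087 gene symbols in the deposited tables, and all 10 were among the 10945 genes with enough reads to be tested. Granulosa cells, the somatic cells that surround the oocyte in an ovarian follicle, had been captured from the ovaries of wild-type (WT) C57B6/J females aged 3 weeks, using a laser microdissector. The NAC group (4 libraries) had received N-acetyl-l-cysteine, an antioxidant and cysteine source, at 150 mg/kg by intraperitoneal injection on 3 consecutive days. The saline group (6 libraries) had received saline on the same schedule. Ovaries were taken on day 4, polyadenylated RNA was amplified by GEO-seq, a protocol for small captured areas, and every library carries batch 1 in the labels. Which mouse gave which library is not labelled, so libraries may share mice and the p-values below may then be too small. The series title sets HIF1 and Bcl-XL against FOXO1 and Bim in follicle atresia, the death of follicles, and the comparison here asks how the transcripts of Bim, Bcl-XL and their relatives stood under NAC and under saline.

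BCL2 family proteins control the permeability of the mitochondrial outer membrane. Effectors (Bax, Bak and Bok) can form pores that release cytochrome c, anti-apoptotic members (Bcl-XL, Bcl-2, Mcl-1 and Bcl-w) hold effectors and activators in check, and BH3-only proteins (Bim, Bad and Bid) sense stress and either neutralise the anti-apoptotic members or activate the effectors. Granulosa cell apoptosis is the hallmark of atresia, and FOXO factors are known activators of the Bim gene. Much of the control of this family acts on proteins (phosphorylation of Bad, cleavage of Bid, rapid turnover of Mcl-1), which transcript levels do not measure.

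The promoters of the members were matched by symbol to RefSeq start sites on GRCm38.p6, and all 10 members matched, with 14 promoters in all. The 3 shown, with further windows of the same genes left out, are the genes of the title, Bcl2l11 and Bcl2l1, and Bad. Bad had the most negative fold change of the 10. The windows left out are described after the sequences. Each sequence shown is the 250 bases before a start site, printed 5′ to 3′ on the gene's strand. Capitals mark the motif letters searched on both strands: GTAAACA, a heptamer that FOXO factors can bind, and ACGTG and GCGTG, the cores that HIF factors can bind.
Bcl2l11, chr2:128125788-128126037, plus strand: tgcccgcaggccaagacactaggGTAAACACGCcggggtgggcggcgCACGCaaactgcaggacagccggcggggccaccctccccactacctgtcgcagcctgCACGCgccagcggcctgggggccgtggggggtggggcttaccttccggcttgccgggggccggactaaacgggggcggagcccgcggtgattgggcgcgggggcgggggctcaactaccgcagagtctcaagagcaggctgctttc
Bcl2l1, chr2:152831729-152831978, minus strand: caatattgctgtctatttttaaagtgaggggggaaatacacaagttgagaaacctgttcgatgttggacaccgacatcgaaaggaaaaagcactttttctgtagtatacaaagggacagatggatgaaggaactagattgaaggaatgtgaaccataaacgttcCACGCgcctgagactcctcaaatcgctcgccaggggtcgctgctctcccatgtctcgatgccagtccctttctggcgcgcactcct
Bad, chr19:6941611-6941860, plus strand: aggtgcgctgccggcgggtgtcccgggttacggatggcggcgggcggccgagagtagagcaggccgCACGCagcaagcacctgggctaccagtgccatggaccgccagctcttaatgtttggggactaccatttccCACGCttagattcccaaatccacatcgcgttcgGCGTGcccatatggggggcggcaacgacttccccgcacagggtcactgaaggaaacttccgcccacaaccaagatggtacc
The Bcl2l11 window holds the FOXO heptamer at -227 from the start site, where it runs into a GCGTG core read on the other strand at -222, and further such cores at -203 and -146. The Bcl2l1 window holds a GCGTG core on the other strand at -86. Over the windows of 300 bases (250 before to 50 after the start), GTAAACA was found in 1 of the 14 member promoters and in 3.65% of all 32851 promoters in the table. GCGTG was found in 5 of 14, belonging to Bcl2l11, Bcl2l1 and Bad, and in 32.4% of all promoters. ACGTG was found in 1 of 14, that of Bax, and in 19.6% of all. Among the windows not shown, those with start sites at 128127575 (Bcl2l11) and 152828489 (Bcl2l1) held none of the motifs. Those at 152830717 (Bcl2l1) and 6942562 (Bad) held GCGTG. A match describes letters only.

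Library depth differed between the captures. NAC 1 and NAC 4 held 1295412 and 1667181 estimated reads and the saline libraries 1340324 to 2488408, but NAC 2 held 509945 and NAC 3 only 116461. NAC 2 and NAC 3 had reads for 84.8% and 85.1% of tested genes while the remaining libraries had 97.7% to 99.5%, and results that rest on them are given without them as well. Values are CPM (TMM-scaled read counts, comparable between libraries). A single read was worth 8.06 CPM in NAC 3, 2.05 in NAC 2 and 0.445 to 0.721 elsewhere. The 12 granulosa markers were read in both groups, with summed levels of 6913 to 13380 CPM in NAC and 11290 to 41040 in saline, although Cyp19a1 had no read in NAC 2. In NAC 2, Amh (2.05 CPM), Inha (2586), Foxl2 (84.0), Hsd17b1 (131) and Fst (348) also had their lowest values of all libraries. Nr5a2 (369) had its highest there, and Inhba, Inhbb, Fshr, Kitl and Gja1 lay between. Of the 12 granulosa markers, 10 had negative log2 folds, 5 with an unadjusted p under 0.05, and the median was -0.64. Markers of other ovarian cells were also present: 12 oocyte markers summed to 276 to 1586 CPM in NAC and 33.4 to 1918 in saline, and 10 theca and stroma markers to 64.4 to 1781 and 116 to 1042. Of the tested markers, 8 of 10 for the oocyte were positive, with a median of 0.89, and 7 of 9 for theca and stroma, with a median of 1.21. NAC 2 had the highest stroma and smooth muscle sums. Of the oocyte markers, Figla was at 0 in all libraries but saline 4. Endothelial markers (5 genes) summed to 48.3 to 162 CPM in NAC and 7.93 to 38.7 in saline, and all 3 that were tested had positive log2 folds with an unadjusted p under 0.05. The part of these markers in the values below was not tested, except where a setting is given.

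No member passed the test. Of the 10, 6 had negative and 4 had positive log2 folds (NAC over saline), and edgeR called 0 of 10 at an adjusted p under 0.05, where 0.0731% of all tested genes were called. At an unadjusted p under 0.05 there were 3 members lower in NAC (Bad, Bid and Bax) and 1 higher (Mcl1), or 4 of 10, beside 8.34%, 7.82% and together 16.2% of all tested genes. DESeq2 called 1 member, Bad, where it called 3.68% of all genes, and limma on log2(TPM + 1) called 0, where it called 0.11%. In no member did the libraries of the groups separate without overlap, as they did lower in NAC for 3.43% and higher for 1.96% of tested genes. The 6 pro-apoptotic members had a median log2 fold of -0.69, with 5 negative, and the 4 anti-apoptotic members a median of 0.41, with 3 positive. Over all tested genes the median was 0.02 and 49% were negative. Without NAC 2 and NAC 3 the medians were -0.29 (pro-apoptotic), 0.19 (anti-apoptotic) and -0.04 (all tested genes). The granulosa markers, with a median of -0.64, were negative beside the pro-apoptotic members, and their part in this was not tested. In captured tissue, fewer cells of a type and less RNA per cell cannot be told apart.

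**Figure D1:**
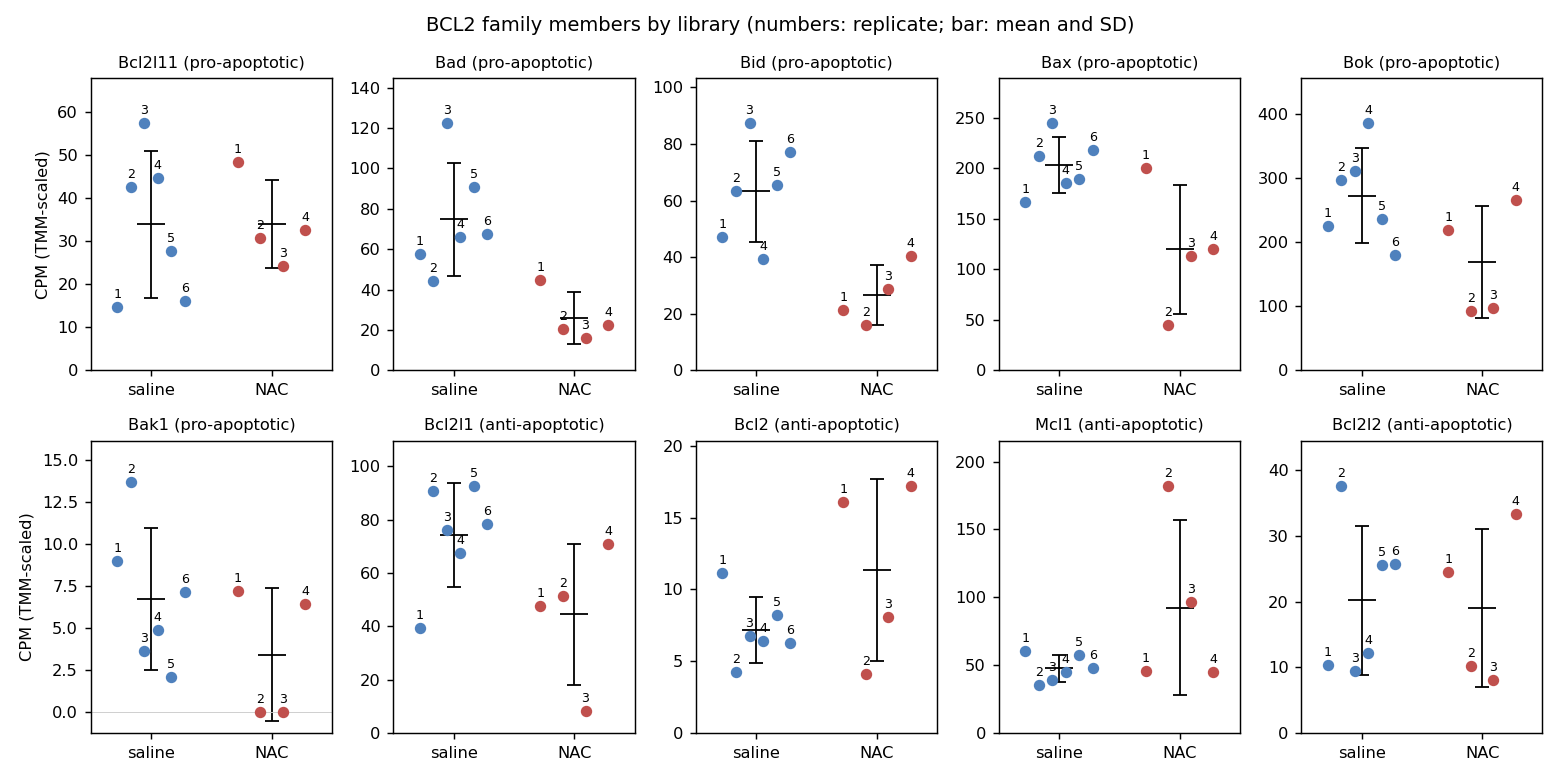
CPM (vertical axis) of each BCL2 family member in every library, saline in blue and NAC in red, with the replicate number beside each point and bars for mean and SD. Bad and Bid lie low in all 4 NAC libraries and just touch the saline range. In NAC 3 they rest on 2 and 3.57 estimated reads. The high Mcl1 values are those of NAC 2 and NAC 3.

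Among the BH3-only genes, Bcl2l11 (ENSMUSG00000027381, GRCm38 chromosome 2, 128126038 to 128162547) encodes Bim, which binds all the anti-apoptotic members and can activate Bax. It read 48.3, 30.7, 24.2 and 32.5 CPM in NAC 1 to 4, and in saline a lowest value of 14.8, a median of 35.2 and a highest of 57.5. All 4 NAC values lay inside the saline range. The log2 fold was 0.06 (SE 0.45, 95% interval -0.89 to 1.00, edgeR adjusted p = 0.964). The interval holds changes of either sign and overlaps the intervals of Bad and Bid below. Differences between members were not tested. Its sign was not fixed: the log2 fold was -0.23 without NAC 1, and -0.09, -0.04 and -0.13 without saline 1, 5 or 6. Within saline Bcl2l11 spanned 3.90-fold from saline 1 to saline 3, a span exceeded only by Bak1 (6.66) and Bcl2l2 (3.98) among the members. In NAC 3 its value rested on 3 reads.

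Bad (chromosome 19, 6941861 to 6951899) encodes a BH3-only protein that binds Bcl-XL and Bcl-2 and is held inactive in the cytosol when phosphorylated by survival kinases. It read 44.7, 20.5, 16.1 and 22.4 CPM in NAC 1 to 4, and 44.3, 66.7 and 123 CPM as the lowest, median and highest saline values. The groups overlapped only because NAC 1 was level with saline 2. In NAC 2 and NAC 3 the values came from 10 and 2 reads. For NAC 3 that is under the floor of 3 reads, worth 24.2 CPM there. The means were 25.9 ± 12.8 CPM (SD, n = 4) and 74.8 ± 27.9 (SD, n = 6), a log2 fold of -1.42 (SE 0.40, 95% interval -2.27 to -0.58, edgeR adjusted p = 0.113). DESeq2 gave -1.39 with an adjusted p of 0.0341, and over all alternatives the adjusted p ran from 0.0341 to 0.672. Without NAC 2 and NAC 3 the log2 fold was -1.21, and with offsets that remove each library's trend on GC content and transcript length it was -0.88 (edgeR adjusted p = 0.294).

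Bid (chromosome 6, 120891930 to 120916853) encodes the BH3-only protein that links death receptors to mitochondria after cleavage by caspase-8. It read 21.3, 15.9, 28.8 and 40.3 CPM in NAC 1 to 4, against a lowest, median and highest saline value of 39.5, 64.3 and 87.4. Only NAC 4 reached the saline range, just above saline 4. The means were 26.6 ± 10.6 and 63.3 ± 17.9 CPM, and the log2 fold was -1.20 (SE 0.38, 95% interval -2.01 to -0.38, edgeR adjusted p = 0.154). Its log2 fold was -1.05 without NAC 2 and NAC 3 and -0.97 with the GC and length offsets, neither passing. In NAC 2 and NAC 3 these values came from 7.78 and 3.57 estimated reads.

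The effectors Bax and Bok were the most abundant members. Bax (chromosome 7, 45461697 to 45466898) encodes the main pore-forming protein that moves from cytosol to mitochondria. It read 201, 45.0, 113 and 120.3 CPM in NAC 1 to 4 and 166 to 245 CPM in saline, with a median of 201. NAC 1 sat at the saline median and the other 3 NAC libraries below every saline library. The log2 fold was -0.74 (SE 0.33, edgeR adjusted p = 0.283), and it was -0.39 without NAC 2 and NAC 3 and -0.19 with the GC and length offsets. Bax transcripts have the highest GC content of the 10 (63.5% in the longest).

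Bok (chromosome 1, 93685660 to 93695764) encodes a pore-forming relative of Bax that is known from reproductive tissues. It read 219, 92.1, 96.7 and 266 CPM in NAC 1 to 4, and 179.6, 266 and 386 CPM as the lowest, median and highest saline values. NAC 2 and NAC 3 were below all saline libraries, while NAC 1 and NAC 4 were inside their range. The log2 fold was -0.64 (SE 0.33, edgeR adjusted p = 0.352), -0.20 without those libraries and -0.0018 with the GC and length offsets. Bak1 (chromosome 17, 27019810 to 27029009), whose protein sits in the mitochondrial membrane at rest, was scarce: 7.21, 0, 0 and 6.45 CPM in NAC and 2.05 to 13.7 in saline. With 3 reads worth 6.14 CPM in NAC 2 and 24.2 in NAC 3, its zeros there do not show a level below saline. Its log2 fold of -0.58 had an SE of 0.88, and it was -0.01 without NAC 2 and NAC 3.

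Among the anti-apoptotic genes, Bcl2l1 (ENSMUSG00000007659, chromosome 2, 152780668 to 152831728) encodes Bcl-XL and, by a shorter splice form that gene totals do not separate, the pro-apoptotic Bcl-XS. It read 47.6, 51.2, 8.05 and 70.9 CPM in NAC 1 to 4, and 39.5, 77.2 and 92.8 CPM as the lowest, median and highest saline values. NAC 3, with 1 read, lay below the saline range and the other 3 NAC libraries inside it. The log2 fold was -0.60 (SE 0.39, 95% interval -1.42 to 0.22, edgeR adjusted p = 0.456), and -0.35 without NAC 2 and NAC 3. With the GC and length offsets it was -0.02 (adjusted p = 0.989). Bcl2l1 lies in the highest of 4 equal groups of tested genes by GC content, together with Bad, Bax, Bak1 and Bok.

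Mcl1 (chromosome 3, 95658788 to 95663176) encodes a short-lived protein that restrains Bim and Bak. It read 45.4, 182, 96.7 and 45.1 CPM in NAC 1 to 4 and 35.3 to 60.2 in saline, with a median of 46.5. NAC 2 and NAC 3 stood above every saline library, and NAC 1 and NAC 4 lay at the saline median. The means of 92.4 ± 64.6 and 47.5 ± 9.84 CPM gave a log2 fold of 0.92 (SE 0.40, 95% interval 0.08 to 1.76, edgeR adjusted p = 0.264). It was 0.22 without NAC 2 and -0.11 without NAC 2 and NAC 3, so the positive value came from the shallow libraries. NAC 2 is also the library with the highest stroma and smooth muscle marker sums, and their part in its Mcl1 level was not tested.

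Bcl2 (chromosome 1, 106538178 to 106714274), the founding anti-apoptotic gene of the family, was low in both groups: 16.1, 4.10, 8.05 and 17.2 CPM in NAC 1 to 4, and 4.24 to 11.1 in saline with a median of 6.59. NAC 1 and NAC 4, the deeper NAC libraries, stood above every saline library, with 22.3 and 32.1 estimated reads, while NAC 2 had 2 reads, too few to place it below saline (3 reads are worth 6.14 CPM there). The log2 fold was 0.76 (SE 0.64, edgeR adjusted p = 0.571), and 1.17 without NAC 2 and NAC 3. Bcl2l2 (chromosome 14, 54883377 to 54888234), which encodes Bcl-w, read 24.5, 10.2, 8.05 and 33.3 CPM in NAC and 9.47 to 37.7 in saline. Its log2 fold of 0.06 (SE 0.55) took either sign across settings, from -0.42 without NAC 4 to 0.48 without NAC 2 and NAC 3. The high values of Bcl2l2 fell in NAC 1 and NAC 4 as those of Bcl2 did.

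**Figure D2:**
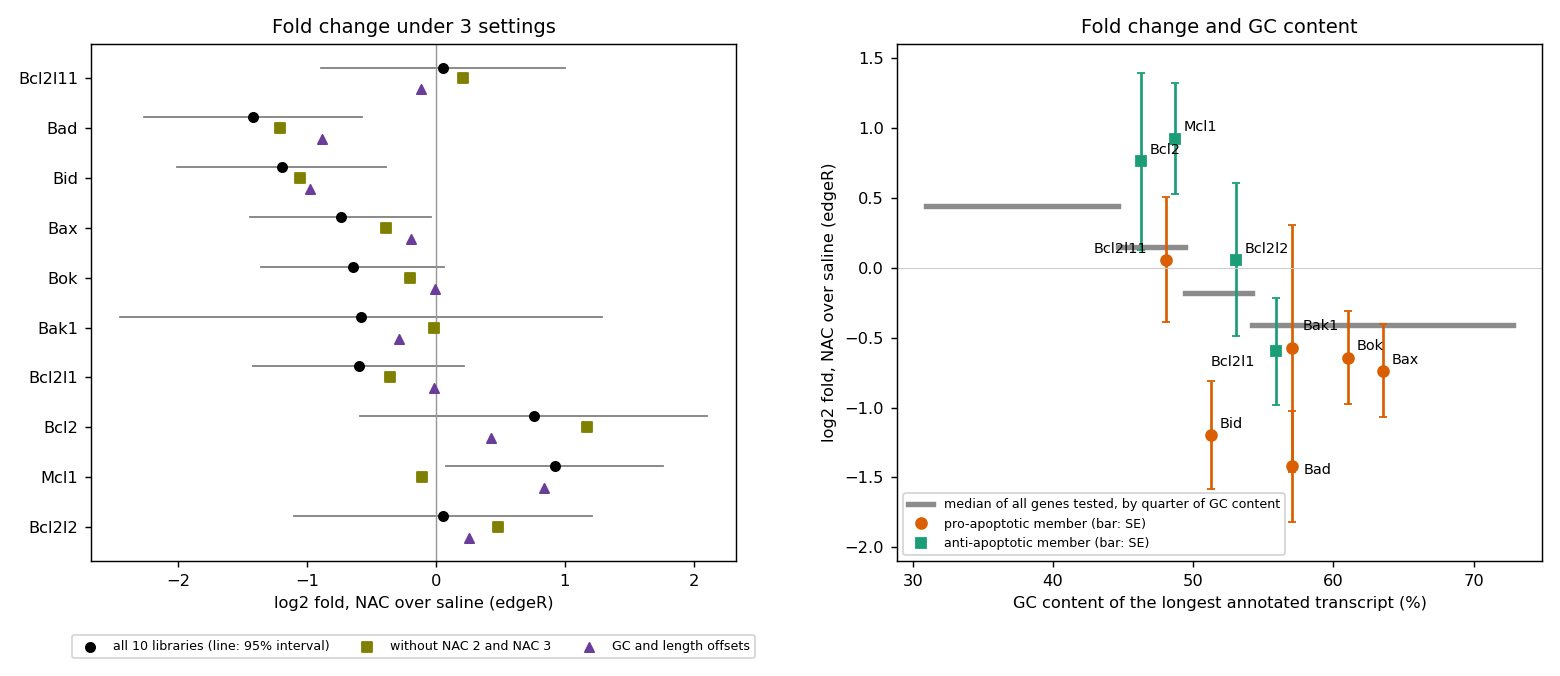
Left, log2 folds of the members with all 10 libraries (black, with 95% intervals), without NAC 2 and NAC 3 (squares) and with GC and length offsets (triangles); right, log2 fold (bars: SE) against GC content of the longest annotated transcript, with grey lines for the median of all tested genes in each of 4 GC groups. Bad and Bid lie between -1.42 and -0.88 in the 3 settings. Like Bax, Bok and Bcl2l1, they move toward 0 when the libraries are left out or the offsets are used. With the offsets Bax, Bok and Bcl2l1 reach -0.19, -0.0018 and -0.02.

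Log2 folds varied with GC content over all genes. With tested genes split into 4 equal groups, from the lowest to the highest GC content the median log2 fold of all tested genes was 0.44, 0.15, -0.18 and -0.41. Bcl2l11, Bcl2 and Mcl1, the 3 members in the second group (46.3% to 48.7% GC), had positive folds. In the third group, Bid had -1.20 and Bcl2l2 0.06. The 5 members in the highest group (55.9% to 63.5%) all had negative ones. With the offsets for GC and length the pro-apoptotic median was -0.24 and the anti-apoptotic median 0.34, against -0.69 and 0.41 before, and Bad and Bid kept the most negative folds.

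Levels can be compared between members only per length. On the scale of deposited TPM, the saline means were 319 ± 52.8 for Bax and 240.1 ± 67.4 for Bok, whose ranges overlapped, then 94.5 ± 31.2 for Bad, whose highest library (150.5) passed the lowest of Bok (146.5). Bcl2l1 followed with 34.3 ± 8.29 and Bid with 30.8 ± 8.72, again overlapping. Mcl1 had 15.1 ± 3.96, Bcl2l11 8.47 ± 4.05, Bcl2l2 6.15 ± 3.71, Bak1 4.75 ± 3.50 and Bcl2 2.14 ± 0.974, and from Bid down each overlapped its neighbour in the order. By these means, Bcl2l1 was the most abundant anti-apoptotic transcript of the 4 in saline, and Bim the least abundant BH3-only transcript of the 3. The order was the same with CPM divided by the longest annotated transcript, except that Bok (185 ± 50.3 CPM per kb) and Bax (184 ± 25.3) changed places. On that scale Bcl2l1 and Mcl1 overlapped in saline, with a lowest Bcl2l1 value of 15.4 and a highest Mcl1 value of 17.6. The deposited lengths of Bax, Bok and Bad lie below the shortest annotated transcript in all 10 libraries, for example 171 to 187 bases against 222 for Bax, and this raises their TPM. The same held for Bcl2l1 in 9 libraries and Bak1 in 8.

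**Figure D3:**
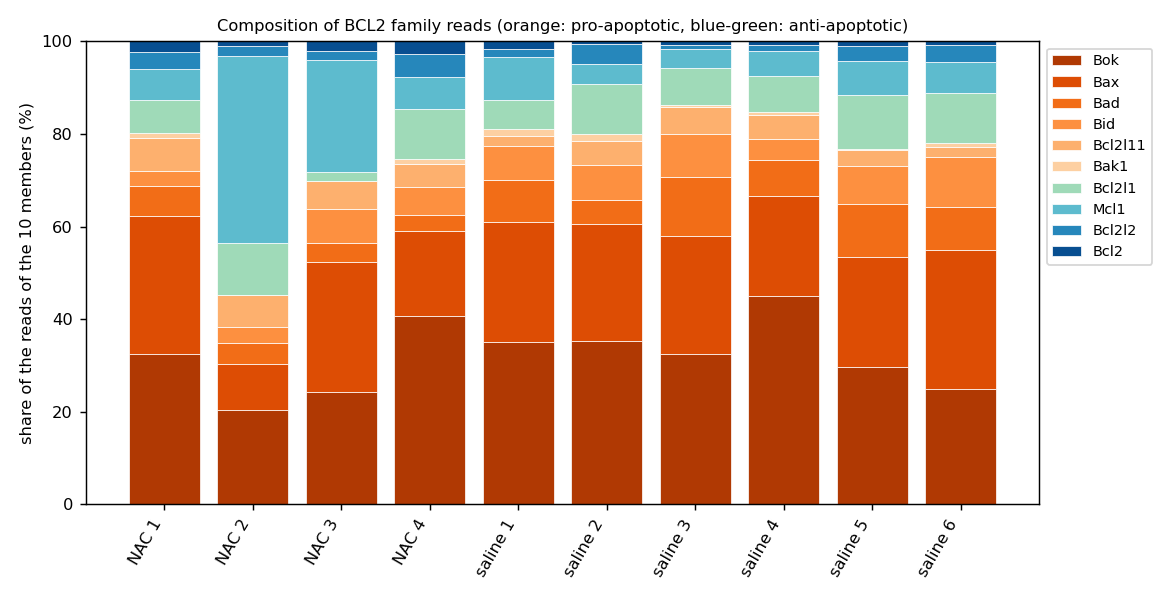
Share of the reads of the 10 members (vertical axis, percent) taken by each member in every library, pro-apoptotic genes in orange and anti-apoptotic genes in green and blue. Bok and Bax take most reads in 9 libraries, and in NAC 2 Mcl1 takes 40.3%.

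The balance of the family was then expressed per library as summed pro-apoptotic over summed anti-apoptotic CPM. The ratio was 4.05, 0.825, 2.31 and 2.93 in NAC 1 to 4, and 4.28, 4.00, 6.29, 5.55, 3.32 and 3.57 in saline 1 to 6. NAC 2, NAC 3 and NAC 4 lay below all 6 saline libraries, and NAC 1 lay inside their range. The means were 2.53 ± 1.35 (SD, n = 4) and 4.50 ± 1.17 (SD, n = 6), and on the log2 scale NAC (1.12 ± 0.99) was lower than saline (2.13 ± 0.36) by 1.01 in the mean. Because the members were chosen with earlier results of these data known, the ratio carries no test. In the sums over all members the difference lay in the numerator. Pro-apoptotic CPM summed to 378 ± 162 in NAC and 654 ± 113 in saline, and anti-apoptotic CPM to 167 ± 57.1 and 149 ± 24.8. The anti-apoptotic sum held the high Mcl1 values of NAC 2 and NAC 3 (182 and 96.7 CPM). Without Mcl1 the log2 difference was -0.27.

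The size of this difference depended on a few values. The log2 difference (NAC minus saline) was -0.54 without NAC 2 and -0.35 without NAC 2 and NAC 3. With Mcl1 left out of the denominator it was -0.27, and with the GC and length trend removed from the CPM it was -0.49. It was -1.30 on summed TPM, -0.92 on CPM per kb and -0.96 with every member weighted equally on log2(CPM + 1). All of these settings kept the negative sign.

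Counted as reads, the pro-apoptotic share of the 10 members was 80.2% in NAC 1 (95% Wilson interval 77.6% to 82.7%), 45.2% in NAC 2 (38.8% to 51.8%), 70% in NAC 3 (56.2% to 80.9%) and 74.5% in NAC 4 (72.0% to 76.9%). In saline it ran from 76.8% to 86.3% with a median of 80.6%. The interval of NAC 4, the deepest NAC library, overlapped that of saline 5, the lowest saline library (74.7% to 78.9%), and the interval of NAC 2 lay below that of every saline library. These intervals treat each read as an independent draw and leave out the spread between libraries. GEO-seq reads were amplified and carry no molecular identifiers here, so the intervals may be too narrow. The reads behind them were 936, 221, 49.6 and 1218 in NAC 1 to 4 and 925 to 2128 in saline.

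**Figure D4:**
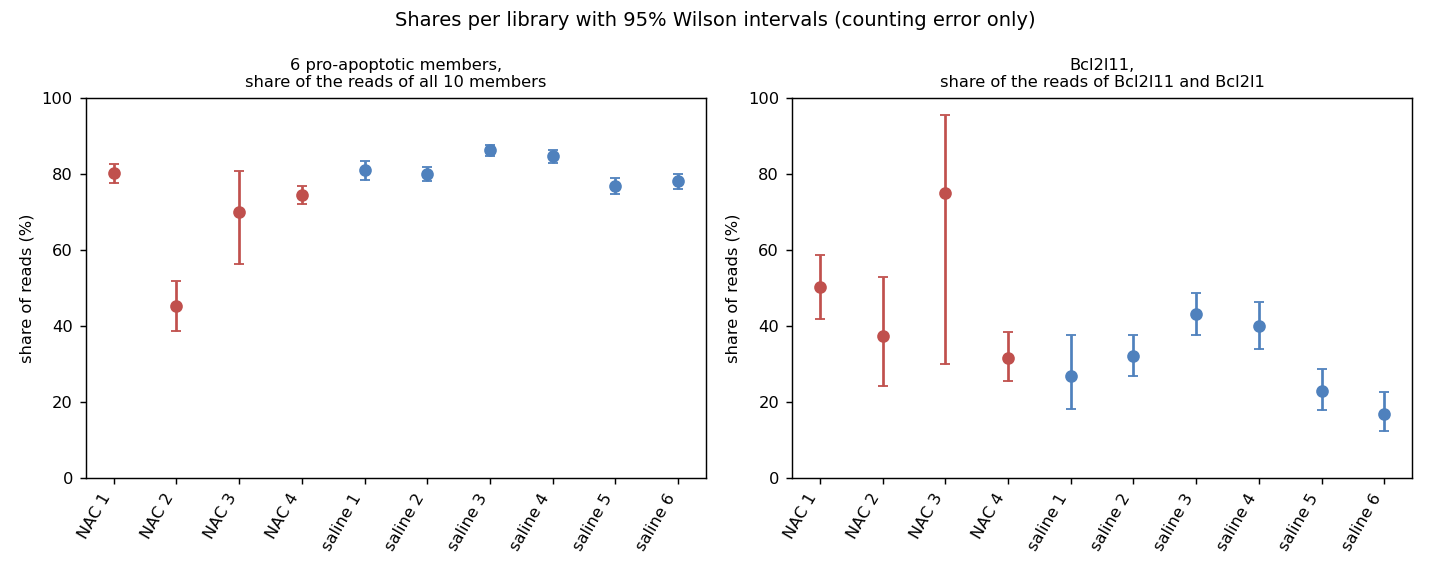
Left, share of the 10 members' reads that came from the 6 pro-apoptotic genes; right, share of the reads of Bcl2l11 and Bcl2l1 that came from Bcl2l11, per library with 95% Wilson intervals. On the left NAC 2 stands apart at 45.2%, and on the right the interval of NAC 3, with 4 reads, spans 30.1% to 95.4%.

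Bim against Bcl-XL, the pair named in the title, had a higher mean ratio in NAC, the opposite sign to the family ratio, with overlapping groups. The ratio of Bcl2l11 to Bcl2l1 was 1.01, 0.6, 3 and 0.458 in NAC 1 to 4, and 0.374, 0.470, 0.755, 0.664, 0.298 and 0.204 in saline 1 to 6. NAC 1 and NAC 3 lay above the saline range, and NAC 2 and NAC 4 inside it. The ratio of 3 in NAC 3 came from 3 reads to 1, a Bcl2l11 share of 75% with a Wilson interval of 30.1% to 95.4%. In NAC 1 the share was 50.4% (42.0% to 58.7%), and in saline it was 17.0% to 43.1%. The interval of NAC 1 overlapped those of saline 3 (37.6% to 48.8%) and saline 4 (33.9% to 46.45%). On the log2 scale the mean was -0.06 ± 1.20 in NAC and -1.26 ± 0.71 in saline, a difference of 1.19. It was 0.64 without NAC 3, 0.70 without NAC 2 and NAC 3, 0.72 on TPM and 0.39 with the GC and length trend removed. The Bcl2l11 mean was 33.9 CPM in both groups, while the Bcl2l1 mean was 44.4 ± 26.3 CPM in NAC and 74.1 ± 19.5 in saline, a difference that did not pass the test above.

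The other genes of the pathway gave no member that passed. Of 7 other BH3-only genes only 2 had enough reads: Bnip3l, a mitophagy receptor, had a log2 fold of 0.52 (edgeR adjusted p = 0.371) and Bnip3, a hypoxia-induced relative and HIF target, -0.28 (0.687). Without NAC 2 and NAC 3 Bnip3l had 0.28 and Bnip3 -0.96. Bbc3 (Puma), Pmaip1 (Noxa), Bmf, Hrk and Bik were too low to test. Bik read 38.9 CPM in NAC 2, from 19 reads, and at most 4.39 in any other library. Of the 4 other BCL2-like genes, Bcl2l12 had -0.41 and Bcl2l13, which overlaps Bid on the opposite strand, 0.23, and the other 2 were not tested.

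Bcl2l10, an anti-apoptotic gene known for its expression in oocytes, was the only tested gene of the 4 other anti-apoptotic genes. It read 62.8, 137, 113 and 288 CPM in NAC 1 to 4, and 0.692, 95.1, 0.451, 309.5, 0 and 0.889 in saline 1 to 6. The 2 saline libraries with high values, 2 and 4, were also those with the highest oocyte marker sums (807 and 1918 CPM), while NAC 2 had 137 CPM at an oocyte sum of only 276. The log2 fold was 1.17 (SE 1.59, edgeR adjusted p = 0.744). With Bcl2l10 added to the denominator, the log2 difference in the family ratio was -1.50 in place of -1.01.

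**Figure D5:**
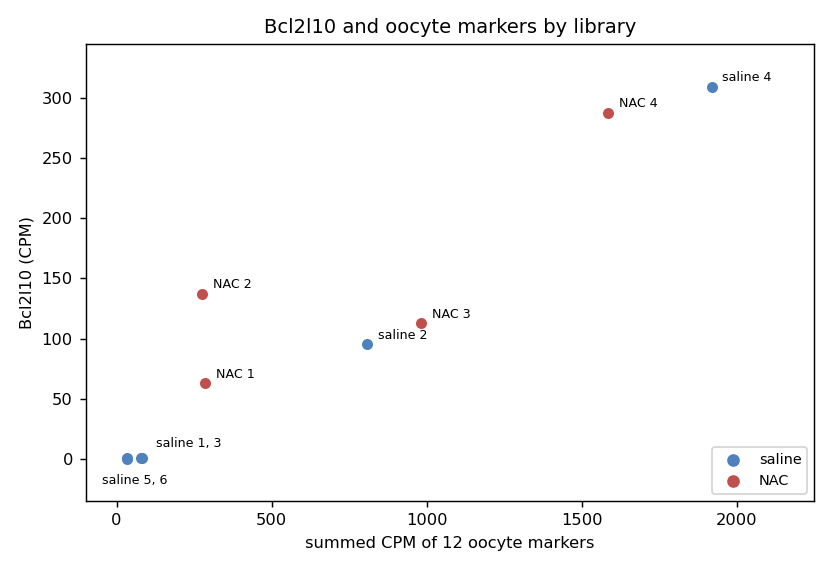
Bcl2l10 (CPM) against the summed CPM of 12 oocyte markers in each library, NAC in red and saline in blue. Saline 1, 3, 5 and 6 sit near 0 on both axes, and saline 4 and NAC 4 are highest on both.

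Downstream of the family, the 12 genes of the apoptosome and mitochondrial release were all tested, with 9 positive and 3 negative, 2 at an unadjusted p under 0.05, none called, and a median of 0.14. Cycs, which encodes cytochrome c, had a log2 fold of 0.94 (edgeR adjusted p = 0.242), which was -0.13 without NAC 2 and NAC 3. Htra2, a mitochondrial protease, had -0.85 (0.271), and -0.19 with the GC and length offsets. Xiap, an inhibitor of caspases, had 0.83 (0.378), which was 0.23 without NAC 2 and NAC 3 and -0.15 with the offsets. The 12 outer membrane partners had a median of -0.04 with 5 positive, and their smallest p-values belonged to Itpr1 (0.67), Vdac2 (-0.30) and Vdac1 (-0.32), given as log2 folds. Without NAC 2 and NAC 3 Itpr1 had 0.92, Vdac2 -0.44 and Vdac1 -1.07.

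Among 18 regulators of the member proteins, 11 were positive and 7 negative, 2 had an unadjusted p under 0.05, 0 were called and the median was 0.08. Usp9x, a deubiquitinase that stabilises Mcl-1, had 0.70 (edgeR adjusted p = 0.274). Its log2 fold was 0.23 without NAC 2 and NAC 3 and -0.20 with the GC and length offsets. Gsk3b, a kinase that marks Mcl-1 for degradation, had 0.56 (edgeR adjusted p = 0.318), which was 0.39 without NAC 2 and NAC 3 and 0.065 with the offsets.

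Of 15 transcription factors that can act on member genes, 6 were positive and 9 negative, 4 had an unadjusted p under 0.05 and 0 were called, with a median of -0.36, which was 0.027 with the GC and length offsets. Stat5a, a mediator of cytokine and growth hormone signals, had a log2 fold of -1.45 (edgeR adjusted p = 0.138, DESeq2 adjusted p = 0.0419). Rela, a subunit of NF-κB, had -1.15 (edgeR adjusted p = 0.187). Cebpb, an effector of gonadotropin signals in granulosa cells, had -1.76 (edgeR adjusted p = 0.244). With the offsets Stat5a, Rela and Cebpb had -1.055, -0.57 and -1.27, and without NAC 2 and NAC 3 -1.23, -0.84 and -1.41. The Foxo1 and Hif1a transcripts, whose proteins the title places upstream of Bim and Bcl-XL, had -0.71 (edgeR adjusted p = 0.307) and 0.36 (0.636). Foxo1 read 711, 874, 250 and 501 CPM in NAC 1 to 4 and 557 to 1350 in saline. Hif1a read 70.0, 201, 209 and 63.9 CPM in NAC 1 to 4 and 68.8 to 119 in saline. For Hif1a, the shallow NAC 2 and NAC 3 lay above every saline library, NAC 1 inside the saline range and NAC 4 below it.

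The genes most like Bcl2l11 across the 10 libraries, by Pearson's correlation of log2(CPM + 1) among tested genes with a mean of at least 10 CPM, were Syngr2 (0.884), Zfp516 (0.855) and Tnfrsf12a (0.854). Those most like Bcl2l1 were Dscr3 (0.982), Zfp35 (0.979) and Slc35c2 (0.97). The points share depth and capture, and NAC 3 has 1 Bcl2l1 read.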

How the data were processed

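The members and gene lists were chosen with earlier results of these data known. The authors deposited a gene-level table for each library. The submitters' processing notes name Salmon and GRCm38; the version and any use of strand: not given in the sources used here. Per the file headers, each table holds estimated counts, TPM and average and effective transcript lengths in bases (an other unit). Estimated counts were rounded and tested with edgeR 4.0.16 in R 4.3.3 (quasi-likelihood test, robust, TMM factors, default low-count filter), with Benjamini-Hochberg adjustment over 10945 genes and a threshold of 0.05; the script was tested on simulated data. The 1548 rows without a symbol (0.496% to 0.638% of reads) were left out. CPM used the TMM-scaled totals. Library totals of 116461 to 2488408 reads set the counting precision, and 3 reads was taken as the floor.

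The named genes were the 10 members, up to 3 tested genes with the smallest p from each pathway list, Bcl2l10, overlapping genes, and the 3 genes most like Bcl2l11 and Bcl2l1. Bik, the untested genes of the lists, Foxo1 and Hif1a were named after their values were seen. The values of 1 gene that the rule names are not reported here. Alternatives were RLE factors, DESeq2 1.42.0, no filter, limma 3.58.1 on log2(TPM + 1) and log2(TPM + 0.1), leaving out each library or NAC 2 and NAC 3, the replicate number as a block, an oocyte score as covariate, and offsets from a smooth trend (mgcv 1.9.3) on GC content and length. Positions and GC content came from the GENCODE annotation of GRCm38, promoter sequences from RefSeq.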

Additional observations from a re-analysis of the deposited data

Results flagged for a closer look

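Saline 4 stood apart from the other saline libraries in Bcl2l10, with 309.5 CPM against 95.1 in the next library, saline 2, and 0 in the lowest. The gap to saline 2 was 0.693 of the whole saline range, above the critical value of 0.625 for 6 samples. It was the only such case among 26 checks (13 quantities in 2 groups), where chance gives about 1 in 20. Saline 4 also had the highest oocyte marker sum of all libraries, 1918 CPM; its part in this value was not tested.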

How the results depend on the processing

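The number of genes called over the whole table, 8 with all libraries, was 431 with DESeq2, 226 without the low-count filter, 16 with GC and length offsets, 2 without NAC 2 and NAC 3 and 1 with the replicate block. It ran from 1 to 58 when single libraries were left out: 58 without NAC 1, 39 without NAC 2, 22 without saline 1, 5 without saline 2, 2 without saline 4, and 1 when NAC 3 or NAC 4, or any of saline 3, 5 and 6, was dropped. The median log2 fold of all tested genes, 0.02, moved by over 0.1 on log2(TPM + 0.1), to -0.14, without NAC 1, to -0.11, without NAC 4, to -0.098, and with the replicate block, to -0.094. Bad passed with DESeq2 (log2 fold -1.39, adjusted p = 0.0341). Stat5a passed likewise (adjusted p = 0.0419). Bcl2l11 was -0.072 with the replicate block, -0.094 with the oocyte covariate, -0.11 with GC and length offsets, and -0.23 to 0.22 with single libraries left out. Bcl2l2 was -0.079 with the oocyte covariate and -0.42 to 0.30 with single libraries left out, negative without NAC 1 (-0.08), NAC 4 (-0.42), saline 1 (-0.07), saline 3 (-0.13) or saline 4 (-0.09). Without NAC 2 and NAC 3, Mcl1 was -0.11 and Cycs -0.13. With GC and length offsets, Bcl2l12 was 0.057, Xiap -0.15 and Usp9x -0.20. On log2(TPM + 1) and log2(TPM + 0.1), Bnip3l was -0.080 and -0.082. Among list medians without NAC 2 and NAC 3, other BH3-only genes had -0.34, apoptosome genes -0.21, outer membrane partners -0.54 and regulators -0.20. With GC and length offsets, other BH3-only genes had -0.34, outer membrane partners -0.27, regulators -0.14 and transcription factors 0.027. Bcl2l10, the only tested other anti-apoptotic gene, had 4.24 on log2(TPM + 1) and 5.35 on log2(TPM + 0.1). With single libraries left out, medians ran from -0.064 to 0.28 (apoptosome), -0.31 to 0.070 (outer membrane partners), -0.075 to 0.069 (regulators) and -0.0070 to 0.48 (anti-apoptotic members, lowest without NAC 4). With Mcl1 left out, an alternative added after seeing the data like those with Bcl2l10 and with the GC trend removed from CPM, the difference in the family log2 ratio was -0.27. The cause of these shifts was not tested. RLE factors cannot change a ratio within a library. Whether the replicate numbers pair the samples is not given in the labels. Deviations of same-numbered libraries correlated at -0.00835 to 0.193, and no NAC library but NAC 4 correlated best with its own number. Such correlations cannot settle whether samples were paired. The replicate block changed no member's call, but with it only 1 gene was called in the whole table.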

Other observations

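Some members share ground with other annotated genes of GRCm38, and whether reads were assigned by strand is not given in the sources used here. Bak1 lies wholly inside Ggnbp1 on the opposite strand, and Ggnbp1 had 10.3 to 27.8 estimated reads in 8 libraries and none in NAC 2 and NAC 3, the same libraries in which Bak1 had none. Bid shares 913 bases with Bcl2l13 and Bad 620 with Gpr137, each on the opposite strand. On the same strand, Bax shares 915 bases with Gm45808, Bcl2l2 shares 4794 with Gm20521 and Bid shares 2094 with Gm44260. Bcl2 shares 2087 bases with Gm37053 and 136 with Mir3473f, also on its own strand. Gm20521 had 1.73 estimated reads in NAC 3, where Bcl2l2 had 1, and 5.45 in saline 6, where Bcl2l2 had 58.0.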
